A study of Mus musculus with 7 samples.

Results

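Nuclear receptors are transcription factors that are switched by hormones, lipids and other small molecules, and 38 genes of this class and of its corepressor machinery were examined at the chromatin of mouse skeletal muscle. The genes are 36 nuclear receptors, from the retinoid, thyroid hormone, steroid, lipid-sensing and orphan branches, together with *Ncor1* and *Hdac3*, which encode a corepressor scaffold and the histone deacetylase it activates. They were taken as a fixed list of symbols, and all 38 were found among the 21938 protein-coding genes of the GENCODE M21 annotation on the mm10 (GRCm38) chromosomes. *Nr1d1* and *Nr1d2*, which encode the clock receptors REV-ERBα and REV-ERBβ, were not on the list.

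The data were lists of ChIP-seq peaks, the stretches of genome where DNA recovered with an antibody exceeds the input DNA. Gastrocnemius muscle came from wild-type male C57BL/6J mice aged 5 months, kept on a light-dark cycle and a standard chow diet. The clock activator BMAL1 and RNA polymerase II (RNAP2, clone 8WG16) were mapped at ZT 4, that is 4 hours after lights on, and the clock repressor REV-ERBα at ZT 8, with 2 biological replicates of each. The 6 lists were analysed. Peaks had been called against input DNA, and the 1 input library among the samples was not analysed here. Each factor was mapped at a single time in wild-type muscle, so that no comparison of times or genotypes was possible for any of these genes.

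REV-ERBα binds DNA without activating transcription and silences its targets through NCoR1 and HDAC3, so the corepressor genes among the 38 encode its own partners. Receptors of the RAR, thyroid hormone, vitamin D, LXR, FXR and PPAR types act as heterodimers with a retinoid X receptor, and several of them recruit NCoR1 when unliganded. In skeletal muscle, thyroid hormone receptors set fibre type and energy use, and the NR4A receptors are induced rapidly by contraction and adrenergic signals.

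A gene's window was its body plus 10 kb to either side of every annotated transcription start site (TSS). Peaks of a factor that overlapped by at least 1 bp were merged, and a region had to hold a peak of each replicate's list. Its strength was taken as the lower of the −log10 p values that the authors' peak caller gave at the summits, which rank a peak against the input and do not compare animals. With 2 lists per factor no test across animals could be made, and counts are set beside the same count over other genes. The replicate lists were very unequal for BMAL1, with 34737 and 177669 peaks, and for RNAP2, with 87861 and 168821 peaks, whereas REV-ERBα had 28881 and 29934. Median −log10 p ranged from 1.87 to 3.21 over the 6 lists. The labelled tissue was checked with marker genes, and RNAP2 regions were found at 8 of 8 muscle fibre genes, 1 of 4 endothelial, 2 of 4 macrophage and leukocyte, 3 of 4 fibroblast, 1 of 3 adipocyte, 2 of 3 Schwann cell, 1 of 2 satellite cell and 0 of 3 liver genes. Where the gene's own TSS had to be the nearest, the counts were 1 of 4 for macrophages and leukocytes, 1 of 3 for Schwann cells and 0 of 2 for satellite cells, and the others stayed as given. In bulk muscle, binding in few cells and weak binding in many cells cannot be told apart.

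REV-ERBα regions were found at *Nr6a1*, *Hdac3*, *Nr1h3* and *Thrb*, and BMAL1 regions at *Esr1* and *Nr3c2*. The reference sequence at 5 of these 6 summits is given here because the clock factors' results turn on them. Each run holds 201 bases of mm10, from 100 bp before to 100 bp after the summit of the stronger replicate, and is written 5′ to 3′ on the strand of the named gene. Capitals mark a match to 1 of the motifs searched, which were the clock E-box CACGTG, the myogenic E-box CAGCTG, and AGGTCA, the core hexamer that most nuclear receptors recognise, each on both strands. The stretches were chr2:38926573-38926773 (minus strand) for *Nr6a1*, chr2:91183137-91183337 (minus strand) for *Nr1h3*, chr14:17904870-17905070 (plus strand) for *Thrb*, chr10:4843103-4843303 (plus strand) for *Esr1* and chr8:77032762-77032962 (plus strand) for *Nr3c2*.
Nr6a1, REV-ERBα, promoter: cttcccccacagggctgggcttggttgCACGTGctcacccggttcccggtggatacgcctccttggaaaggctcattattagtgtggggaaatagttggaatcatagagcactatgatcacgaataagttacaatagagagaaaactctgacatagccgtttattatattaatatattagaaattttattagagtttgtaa
Nr1h3, REV-ERBα, promoter of the neighbour Madd: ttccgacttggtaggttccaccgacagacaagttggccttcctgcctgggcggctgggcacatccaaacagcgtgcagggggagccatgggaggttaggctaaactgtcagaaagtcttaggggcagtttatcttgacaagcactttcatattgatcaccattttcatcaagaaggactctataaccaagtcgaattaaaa
Thrb, REV-ERBα, intron: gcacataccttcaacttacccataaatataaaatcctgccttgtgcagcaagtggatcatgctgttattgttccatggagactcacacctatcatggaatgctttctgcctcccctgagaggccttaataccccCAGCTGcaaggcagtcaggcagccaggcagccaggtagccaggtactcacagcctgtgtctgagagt
Esr1, BMAL1, intron: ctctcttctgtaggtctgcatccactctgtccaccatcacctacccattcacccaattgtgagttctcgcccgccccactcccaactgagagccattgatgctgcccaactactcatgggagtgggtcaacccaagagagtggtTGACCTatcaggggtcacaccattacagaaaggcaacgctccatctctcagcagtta
Nr3c2, BMAL1, intron: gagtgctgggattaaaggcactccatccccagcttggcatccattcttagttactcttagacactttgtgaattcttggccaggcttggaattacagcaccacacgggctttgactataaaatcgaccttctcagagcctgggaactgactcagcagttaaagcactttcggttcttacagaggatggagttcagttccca

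RNAP2 marked 22 of the 38 genes at ZT 4, beside 41.1% of the 21900 other protein-coding genes. All 6 retinoid receptors, all 3 NR4A receptors and both corepressor genes had a region in both replicates. Among the other groups the counts were 3 of 5 COUP-TF and testicular receptors, 2 of 4 steroid receptors, 1 of 2 thyroid hormone and vitamin D receptors, 3 of 8 orphan receptors known from restricted tissues, 1 of 6 lipid, bile acid and xenobiotic sensors, and 1 of 2 receptors without a DNA-binding domain. The share of 57.9% was larger than that of other genes, but the windows were also longer, with a median of 56.8 kb beside 30.2 kb. Within 1 kb of a TSS the counts were close, with 12 of 38 genes, or 31.6%, beside 30.5% of the others. In windows of at least 100 kb, 8 of 10 of the genes had a region beside 55.9% of other genes, and in shorter windows 14 of 28 had one beside 38.9%.

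**Figure D1:**
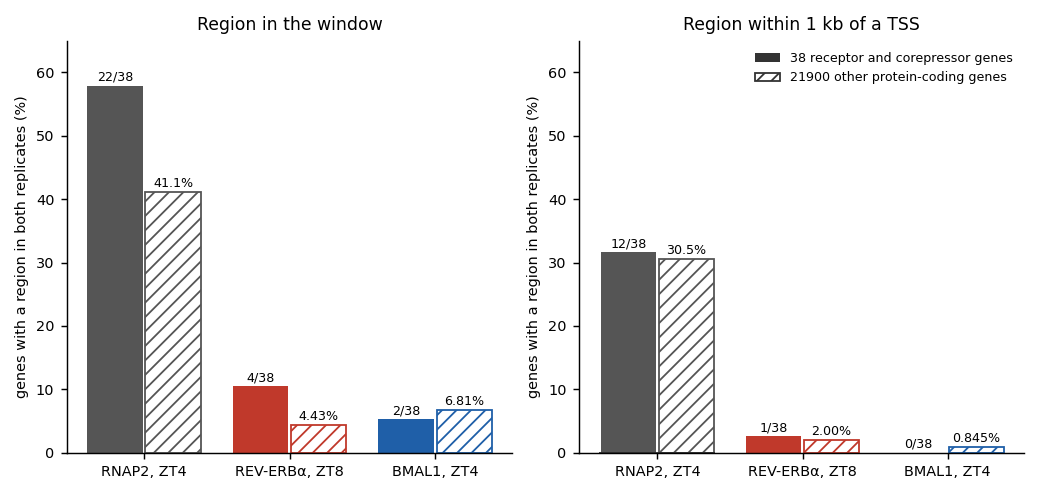
Share of genes with a region in both replicates, in percent, for RNAP2 at ZT4, REV-ERBα at ZT8 and BMAL1 at ZT4. Filled bars stand for the 38 genes and hatched bars for the 21900 other protein-coding genes. The left panel counts regions in the whole gene window and the right panel those within 1 kb of a TSS, where 12, 1 and 0 of the 38 genes are counted.

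The strongest RNAP2 region lay in *Nr4a1*, which encodes the orphan receptor NUR77, an immediate early gene in muscle. Its −log10 p was 22.6 and 17.0 in the 2 replicates, with a fold enrichment over input of 10.4 and 7.80. The summit was in an intron of the longer transcripts, 6091 bp upstream of the nearest TSS (chr15:101260253-101261331), and the gene held 3 RNAP2 regions in all. By the lower replicate *Nr4a1* ranked 416 of the 9027 genes with an RNAP2 region. Its lower value of 17.0 was far above 4.47, the median of the lower values of the other genes. *Nr4a3*, the NOR1 receptor, had −log10 p values of 12.4 and 19.6 at a region 1976 bp upstream of its TSS (chr4:48042763-48043770). *Nr4a2*, the NURR1 receptor, was weaker, with 7.72 and 3.97 in an intron 1941 bp upstream of its nearest TSS, and 5.65 and 3.26 at a promoter. Only *Nr4a2* of the NR4A genes had a region within 1 kb of a TSS.

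Next in strength was *Nr3c2*, the mineralocorticoid receptor, with −log10 p values of 20.4 and 15.3 at its promoter, 283 bp upstream of a TSS (chr8:76901760-76902463). The fold enrichment there was 8.51 and 6.43, and the 2 replicates placed the summit within 16 bp of each other. The other steroid receptors stood apart from it. *Esr1*, the oestrogen receptor α gene, had a weak intronic region with 3.97 and 3.26, and *Esr2* and *Pgr*, for oestrogen receptor β and the progesterone receptor, had peaks in both lists but no region in common.

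*Rxrb*, an obligate partner of many of the other receptors, had 12.2 and 14.4 at its promoter, 2 bp from a TSS (chr17:34031344-34032456). The other regions in its window lay at the promoters of the neighbours *Ring1* and *H2-Ke6*. *Rxra* had 13.1 and 4.47 in an intron 2770 bp downstream of a TSS, so that its replicates differed widely, and *Rxrg*, the form typical of skeletal muscle, had 3.62 and 4.36 at a promoter. Of the retinoic acid receptors, *Rarg* had 7.49 and 3.72, *Rara* 5.52 and 3.94, both at promoters, and *Rarb* 3.21 and 3.97 deep in the gene, where the nearest TSS was that of *Top2b*. The *Rarb* promoter peak of replicate 1, with 8.90, had no partner in replicate 2.

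*Thrb*, the thyroid hormone receptor β gene, had a promoter region with 12.6 and 9.996, 167 bp downstream of a TSS (chr14:17659687-17661278). *Vdr*, the vitamin D receptor gene, had no region in both replicates, and its strongest peaks reached 3.21 and 1.99. The RefSeq promoters (GRCm38.p6) of *Thrb* and *Rara* lie inside these RNAP2 regions, carry a motif of the receptor or clock type, and are shown as examples. Other genes of the list, such as *Rarg* and *Rxrg*, also had AGGTCA in a promoter. They run 5′ to 3′ on the plus strand, from 250 bases before the start to 50 after it, and were chosen after the values were seen. The *Thrb* promoter (chr14:17660710-17661009) holds an AGGTCA hexamer and 37 CpG dinucleotides, and the *Rara* promoter (chr11:98937446-98937745) a CACGTG E-box and 20 CpG dinucleotides, both motifs in capitals.
Thrb promoter: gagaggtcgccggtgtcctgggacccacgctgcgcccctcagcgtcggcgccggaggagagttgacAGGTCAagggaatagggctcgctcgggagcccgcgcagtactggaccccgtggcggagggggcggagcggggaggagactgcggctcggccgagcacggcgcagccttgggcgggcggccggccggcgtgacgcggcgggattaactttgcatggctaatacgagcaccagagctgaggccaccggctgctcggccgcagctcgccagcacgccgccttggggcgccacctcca
Rara promoter: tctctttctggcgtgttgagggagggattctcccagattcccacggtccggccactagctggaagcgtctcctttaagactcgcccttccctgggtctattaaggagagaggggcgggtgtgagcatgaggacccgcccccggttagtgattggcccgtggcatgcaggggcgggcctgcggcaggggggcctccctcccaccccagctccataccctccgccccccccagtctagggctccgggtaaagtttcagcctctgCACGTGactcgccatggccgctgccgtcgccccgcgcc

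Both corepressor genes were marked at their own promoters. *Ncor1* had −log10 p values of 12.3 and 7.67 at a region 130 bp upstream of a TSS (chr11:62456841-62457746), with a fold enrichment of 6.62 and 4.41. *Hdac3* had 9.46 and 6.35 at a region 21 bp from its TSS, with 5.84 and 4.30. A second RNAP2 region in the *Hdac3* window, with 8.47 and 6.69, lay 47 bp from the TSS of the neighbour *Diaph1*, which encodes a formin that nucleates actin filaments. *Ncor1* ranked 2168 of the 9027 genes, and *Hdac3* ranked 2635 by the region at *Diaph1*, which was slightly the stronger by the lower replicate.

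Of the COUP-TF and testicular receptors, *Nr2c2*, the TR4 receptor, had a promoter region with 12.6 and 6.35, and *Nr2c1*, the TR2 receptor, a weak promoter region with 3.21 and 1.99. *Nr2f6*, the EAR2 receptor, was among the 5 strongest genes of the list with 11.6 and 13.0, but this region (chr8:71371198-71371641) lay 85 bp from the TSS of *Ocel1*, 4359 bp downstream of the nearest *Nr2f6* TSS. Its other region was at the promoter of *Use1*. *Nr2f1* had no RNAP2 peak in either list. *Nr2f2* had peaks of up to 3.97 and 2.60 without a region in common.

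Among the sensors of the list only *Nr1h2*, the ubiquitous oxysterol receptor LXRβ, had an RNAP2 region, with 5.38 and 3.87 at a promoter 23 bp from a TSS. *Nr1h3*, its sister LXRα, had a promoter peak of 6.81 in replicate 1 and none there in replicate 2. The bile acid receptor gene *Nr1h4*, the xenobiotic receptor genes *Nr1i2* and *Nr1i3*, and *Pparg*, the adipocyte regulator, had peaks in both lists that did not overlap. The PPAR genes *Ppara* and *Ppard* were not on the list. Both had an RNAP2 region, with 5.07 and 3.97 at *Ppara* and 8.34 and 7.85 at *Ppard*. The orphans with a region, *Hnf4g*, *Nr5a2* and *Rorb*, had lower −log10 p values of 1.99 to 2.60, none within 1 kb of a TSS, and windows of at least 100 kb. *Nr0b2*, the SHP corepressor-like receptor, owed its region, with 13.5 and 3.26, to a site 43 bp from the TSS of *Nudc*. *Nr0b1*, the DAX1 receptor on chromosome X, had no peak in any of the 6 lists.

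In all, 19 of the 22 genes had an RNAP2 region for which their own TSS was the nearest, or 19 of 38 beside 32.2% of other genes, and the exceptions were *Nr0b2*, *Nr2f6* and *Rarb*. Over the 22 genes the lower −log10 p had a median of 3.96 and a range of 1.99 to 17.0, beside a median of 4.47 for the 9005 other genes with a region. At the stricter level of a −log10 q of 1.3 in both replicates, 9 genes kept a region, namely *Hdac3*, *Ncor1*, *Nr2c2*, *Nr2f6*, *Nr3c2*, *Nr4a1*, *Nr4a3*, *Rxrb* and *Thrb*, beside 18.9% of other genes. At least 1 RNAP2 peak was listed for 35 genes in replicate 1 and 36 in replicate 2, beside 76.9% and 86.4% of other genes, whose median window was shorter. Of the 16 genes without a region, 13 had RNAP2 peaks in both lists at different positions, beside 53.2% of the 12895 other genes without a region. Of the rest, *Nr2e1* had peaks in replicate 2 alone, and *Nr0b1* and *Nr2f1* had none.

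**Figure D2:**
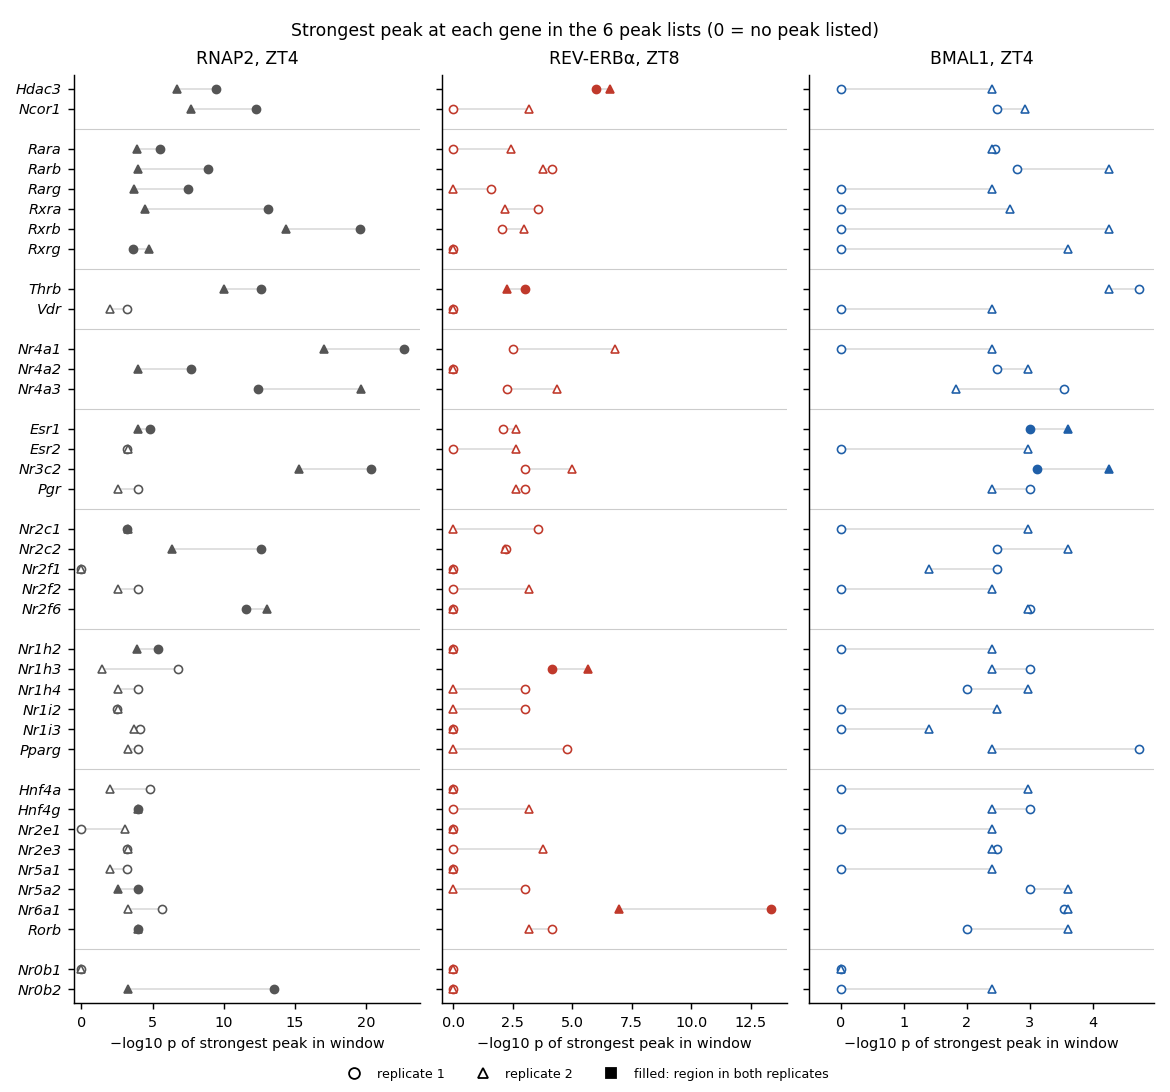
Strongest peak of each of the 38 genes in the 6 lists, as −log10 p on the x axis, with genes grouped by receptor class. Circles are replicate 1, triangles replicate 2, a value of 0 means that no peak was listed, and filled symbols mark genes with a region in both replicates, whose strongest peaks need not be those of the region. RNAP2 reaches 22.6 at *Nr4a1*, REV-ERBα 13.4 at *Nr6a1* and BMAL1 4.74 at *Thrb* and *Pparg*.

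REV-ERBα had a region in both replicates at 4 of the 38 genes, beside 4.43% of all other genes. In windows of at least 100 kb it was found at 2 of 10 genes beside 7.43% of others, and in shorter windows at 2 of 28 beside 3.99%. Among the 22 genes with an RNAP2 region these were *Hdac3* and *Thrb*, or 9.09%, beside 8.50% of the 9005 other genes with an RNAP2 region. The other 2 were *Nr6a1* and *Nr1h3*, among 16 genes without an RNAP2 region, beside 1.60% of the 12895 other genes without one. Only *Nr6a1* had its region within 1 kb of an own TSS, beside 2.00% of all other genes, and only *Nr6a1* and *Thrb* had a region nearest to an own TSS, beside 3.17%.

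The region at *Nr6a1*, which encodes germ cell nuclear factor, a repressor known from oocytes and embryonic stem cells, was the strongest of the 4. Its −log10 p was 13.4 in replicate 1 and 6.94 in replicate 2, its fold enrichment 5.53 and 3.88, and its −log10 q 8.50 and 2.47. Both summits fell within 3 bp of each other, 398 bp upstream of a TSS (chr2:38926371-38926841), and the region ranked 176 of the 1263 REV-ERBα regions. No RNAP2 peak overlapped it in either list, the nearest being 24194 bp away in replicate 1 and 1647 bp in replicate 2. No BMAL1 peak overlapped it either, at distances of 78179 and 3913 bp. The printed sequence holds the E-box CACGTG, centred 70 bp from the summit, which 3.40% of all REV-ERBα regions hold within 100 bp of theirs.

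At *Hdac3* the REV-ERBα region had −log10 p values of 5.99 and 6.59, with −log10 q of 1.61 and 2.15, and lay 136 bp from the TSS of *Diaph1* and 8379 bp downstream of the nearest *Hdac3* TSS. It overlapped the RNAP2 region of the *Diaph1* promoter and not that of the *Hdac3* promoter. A CACGTG E-box lay at its summit. At *Nr1h3* the values were 4.15 and 5.65, 190 bp from the TSS of *Madd*, a regulator of vesicle traffic, and 7698 bp downstream of the nearest *Nr1h3* TSS (chr2:91182988-91183501). A weak RNAP2 peak of replicate 2, with a −log10 p of 1.45, overlapped this region, and no RNAP2 peak of replicate 1 did. The intronic region of *Thrb* was weak, with 2.09 and 2.15, and lay 57851 bp upstream of the nearest TSS (chr14:17904359-17905160). Its printed sequence holds the myogenic E-box CAGCTG, as do 12.7% of all REV-ERBα regions, and none of the 4 regions held AGGTCA, which 13.1% of all REV-ERBα regions held.

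Peaks in single REV-ERBα lists were far more common than regions. Each list had a peak at 20 of the 38 genes, beside 38.7% and 40.1% of all other genes, and at 14 of the 22 genes with an RNAP2 region, or 63.6%, beside 49.8% and 52.7% of other genes with an RNAP2 region. The median windows were longer, at 56.8 kb beside 30.2 kb for the 38 genes and 58.2 kb beside 37.1 kb for the 22. Per 100 kb the 38 genes had 1.20 and 1.28 REV-ERBα peaks, beside 1.23 and 1.32 for all other genes. For 10 of the 38 genes both lists had peaks but at different positions, beside 18.5% of other genes, among them *Nr4a1*, *Nr4a3*, *Nr3c2*, *Rxra*, *Rxrb* and *Rarb*. *Nr1h4*, *Nr1i2*, *Nr2c1*, *Nr5a2*, *Pparg* and *Rarg* had peaks in replicate 1 alone, *Esr2*, *Hnf4g*, *Ncor1*, *Nr2e3*, *Nr2f2* and *Rara* in replicate 2 alone, and 12 genes in neither. The strongest peak without a partner was at a promoter of *Nr4a1*, 169 bp upstream of a TSS, with a −log10 p of 6.82 and a −log10 q of 2.36 in replicate 2. At *Nr4a3* replicate 2 had a peak of 4.35, 1931 bp upstream of the TSS and inside the RNAP2 region there. At *Ncor1*, the corepressor of REV-ERBα itself, the peaks of replicate 2 reached 3.18 and replicate 1 had none.

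The limit of 10 kb decided 1 strong case. A REV-ERBα region with −log10 p values of 17.2 and 15.7 lay 11307 bp from the nearest *Nr4a1* TSS (chr15:101283877-101284460), just outside the window and 104 bp from the TSS of *Atg101*, an autophagy initiation factor. Within 50 kb, regions were also found 27084 and 28140 bp from *Nr1h2*, nearest to *Mybpc2*, the fast fibre myosin-binding protein C, and 32191 bp from *Nr2f6*, nearest to *Myo9b*. The share of other genes with a region within 50 kb was not computed.

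**Figure D3:**
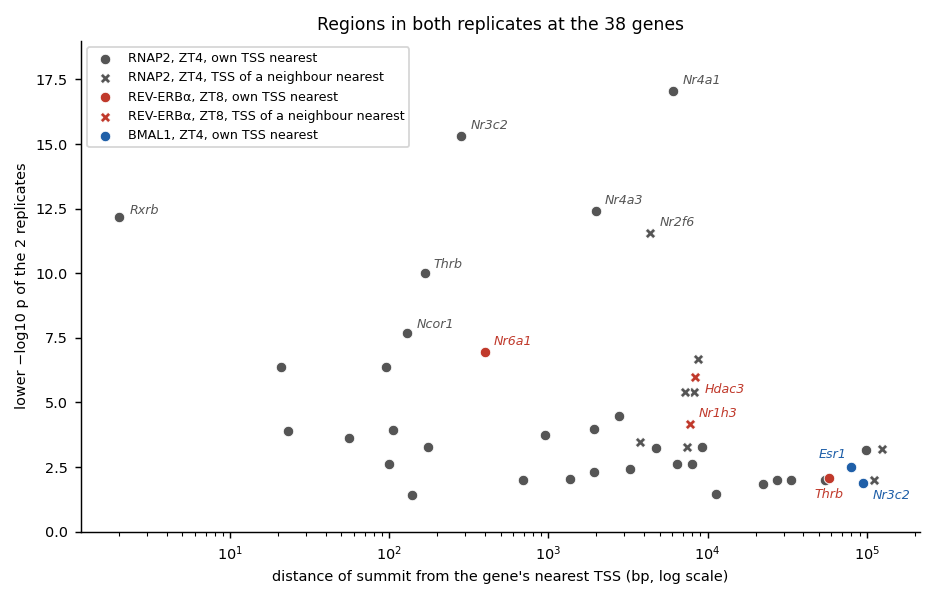
Regions present in both replicates in the windows of the 38 genes. The x axis gives the distance of the summit from the gene's nearest TSS in bp on a log scale and the y axis the lower −log10 p of the 2 replicates. Circles are regions whose nearest TSS belongs to the gene and crosses those nearest to a neighbour's TSS. The strongest RNAP2 points belong to *Nr4a1* and *Nr3c2*, and *Nr6a1* is the REV-ERBα point within 1 kb, with the BMAL1 points at 79767 and 95151 bp.

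BMAL1 had a region in both replicates at 2 of the 38 genes, *Esr1* and *Nr3c2*, beside 6.81% of all other genes. Both had an RNAP2 region, so that the share was 9.09% of 22 genes beside 10.3% of other genes with an RNAP2 region, and 0 of 16 genes without one beside 4.40%. For both regions the nearest TSS was the gene's own. Such a region was counted at 2 of the 38 genes, or 5.26%, beside 5.63% of all other genes. Of the other genes, 1492 had a BMAL1 region and 1233 had one nearest to their own TSS. Neither of the 2 regions at *Esr1* and *Nr3c2* lay near a TSS. That of *Esr1* had −log10 p values of 2.48 and 2.98, in an intron 79767 bp upstream of the nearest TSS (chr10:4842724-4843371), and that of *Nr3c2* 2.01 and 1.87, in an intron 95151 bp upstream (chr8:77032230-77033046). All 4 values had a −log10 q of 0. The *Esr1* sequence holds TGACCT, the reverse complement of AGGTCA, which 10.7% of all BMAL1 regions hold, and neither sequence holds CACGTG, which 2.55% hold.

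Both genes had windows of at least 100 kb, where 2 of 10 of the genes had a BMAL1 region beside 22.1% of other genes. Of the 28 genes with shorter windows 0 had one, beside 4.54%. No gene of the list had a BMAL1 region within 1 kb of a TSS, beside 0.845% of other genes. Single-list peaks were found at 20 of the 38 genes in replicate 1 and 37 in replicate 2, beside 38.2% and 84.3% of all other genes, and at 13 and 22 of the 22 genes with an RNAP2 region, beside 48.3% and 93.1% of other genes with an RNAP2 region. These shares do not take the longer windows of the listed genes into account. The highest single values were 4.74 in replicate 1, at *Thrb* and *Pparg*, and 4.25 in replicate 2, at *Nr3c2*, *Rarb*, *Rxrb* and *Thrb*.

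Many of these peaks carried the same value. In the longer BMAL1 list, 15 of the 37 genes with a peak had a strongest peak with a −log10 p of 2.40, the value of 22.9% of all peaks of that list. Peaks per gene followed the length of the window. In the same list *Nr3c2* had 47 peaks, *Esr1* 43 and *Rarb* 39 in windows of 355.6, 404 and 398 kb, whereas *Nr1h2* and *Nr1i3* had 1 each in windows of 22.3 and 20.4 kb. Per 100 kb of window the 38 genes had 1.15 and 8.90 BMAL1 peaks in replicates 1 and 2, beside 1.61 and 8.54 for other genes with an RNAP2 region. The REV-ERBα densities were 1.20 and 1.28 beside 1.40 and 1.53, and the RNAP2 densities 5.18 and 7.63 beside 5.47 and 8.27. Those comparison genes were chosen by their RNAP2 region, which 16 of the 38 genes lack. Without that choice, other protein-coding genes had lower RNAP2 densities than the 38, at 4.44 and 7.19. Their REV-ERBα densities were then 1.23 and 1.32, close to those of the 38, and their BMAL1 densities 1.40 and 7.84.

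**Figure D4:**
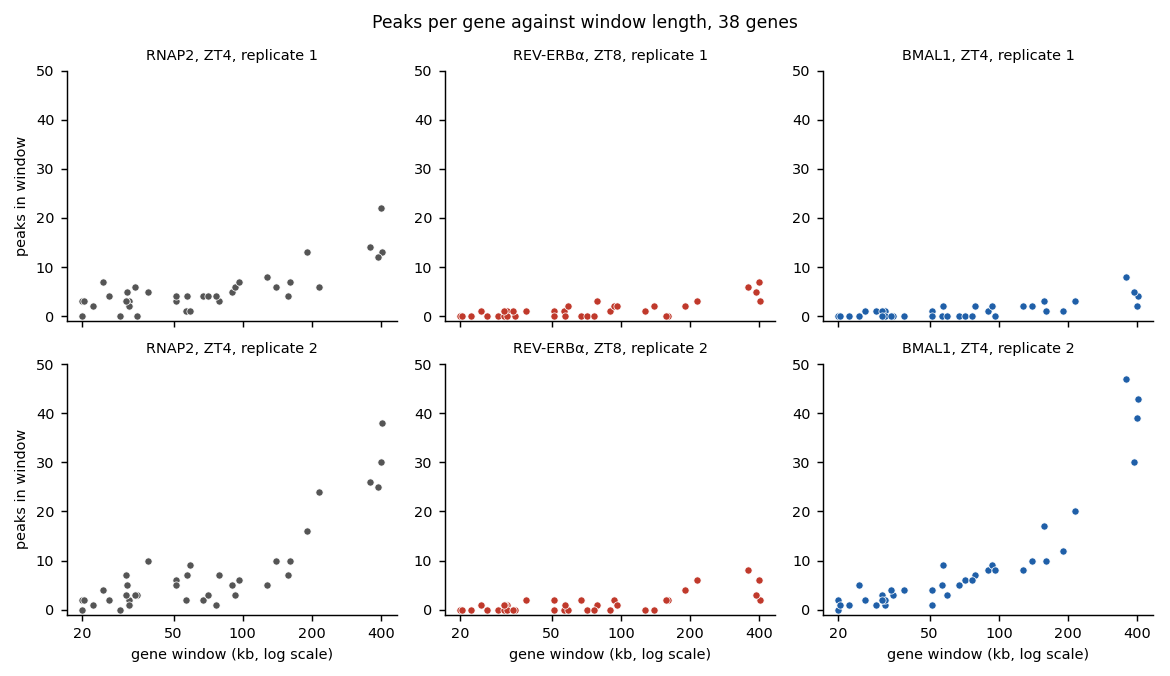
Number of peaks in each gene's window against the window length in kb, on a log scale, for the 38 genes in each of the 6 lists. Each point is 1 gene, and all panels share the same y axis, which reaches 47 peaks at *Nr3c2* in the second BMAL1 list.

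A site shared by BMAL1 and REV-ERBα, which needed peaks from 3 or 4 of their lists, was found at 0 of the 38 genes. Among the other genes with an RNAP2 region 3.04% had such a site, and among all other genes 1.62%. In the wider window of 50 kb, *Nr1h2* and *Nr2f6* had a shared site, but the share of other genes in that window was not computed. Near *Nr1h2*, the BMAL1 region had −log10 p values of 4.56 and 4.25 and lay 28275 bp from the gene's TSS and 1308 bp from that of *Mybpc2*. At the summits, the ROR element and direct repeats of AGGTCA with 1, 2, 4 or 5 bases between were searched as well and found in 0 of the 6 regions. They were too rare for that count to be read, with the ROR element in 0.238% of all REV-ERBα and 0.474% of all BMAL1 regions, and the repeats in 0 of 1263 and 1 of 2742.

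Promoter sequence was compared for the 35 of 38 genes in the RefSeq table, which lists no entry for *Nr5a1*, *Hnf4g* and *Hdac3*. A gene was counted if any of its RefSeq promoters held the motif, so that genes with more promoters had more chances. The number of promoters was not matched. The 27025 genes of that table exceed the 21938 protein-coding genes used elsewhere. AGGTCA was present in a promoter of 10 of the 35 genes, or 28.6%, beside 18.1% of 27025 genes, the 10 including *Rara*, *Rarg*, *Rxra*, *Rxrg*, *Thrb*, *Nr6a1* and *Pparg*. The E-box CACGTG was found at 5 genes, or 14.3%, beside 8.09%, namely *Esr2*, *Nr0b2*, *Nr1i3*, *Rara* and *Thrb*, the last at a promoter other than the one printed. CAGCTG was found at 8, or 22.9%, beside 18.3%. CpG dinucleotides were counted in the most CpG-rich promoter window of each gene, which raises the count of genes with several promoters. Genes with an RNAP2 region within 1 kb had a median of 21 (range 12 to 52, 11 genes), and the remaining 24 genes a median of 13 (range 2 to 55). The median over all 27025 genes was 8 (range 0 to 67).

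Genes of the same pathway outside the list were counted in the same way. Of 12 corepressor partners, 11 had an RNAP2 region (41.1% of other genes), the exception being *Tbl1x*, and 2 had a REV-ERBα region (4.43%). These were *Hdac2*, another histone deacetylase, with −log10 p values of 50.3 and 42.2 at a promoter 141 bp upstream of a TSS, and *Tbl1xr1*, a subunit of the NCoR1 complex, with 6.26 and 5.60. Of the 12, 0 had a BMAL1 region. Of 10 coactivators, 8 had an RNAP2 region beside 41.1% of other genes, 2 a REV-ERBα region beside 4.43% (*Ep300* and *Carm1*), and 3 a BMAL1 region beside 6.81% (*Ncoa1*, *Ncoa6* and *Kat2b*). The BMAL1 regions were weak, with −log10 p values of 2.995 and 1.87, 2.01 and 1.396, and 2.48 and 1.396. They lay 25153, 9098 and 18462 bp upstream of the nearest TSS. Window length was not taken into account, although 22.1% of other genes with windows of at least 100 kb had a BMAL1 region. Of 12 other nuclear receptors, 9 had an RNAP2 region beside 41.1%, 3 a REV-ERBα region beside 4.43% (*Nr1d1*, *Nr1d2* and *Thra*), and 2 a BMAL1 region beside 6.81% (*Nr1d1* and *Nr1d2*). Shared sites were found at those 3 receptors, beside 1.62% of other genes, and at 0 of the corepressor partners and coactivators. *Thra*, a neighbour of *Nr1d1*, had neither an RNAP2 nor a BMAL1 region, and its REV-ERBα region lay 13938 bp downstream of its nearest TSS. Whether its shared site is also counted for *Nr1d1* was not examined.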

How the data were processed

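ChIP-seq peak lists from gastrocnemius muscle were analysed, 2 each for RNAP2, REV-ERBα and BMAL1. The authors aligned reads to mm10 with BWA 7.12, removed duplicates and reads with a MAPQ under 24, down-sampled replicates, and called peaks on each replicate against input with Macs2 2.1.1, keeping p-values up to 0.05. For every peak the authors deposited the Macs2 −log10 p, −log10 q and fold enrichment over input. The deposited score repeats the −log10 p and was not used. The lists give no read counts, so that depth at a peak is unknown and no counting interval is given.

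Regions, windows and counts were computed in Python 3.11.15 with numpy 2.4.6, and sequence was read with pysam 0.24.0. Promoters reach 1000 bp before and 100 bp after a TSS. As a check of the code, overlapping peaks were planted at a TSS of 200 genes in both simulated lists, and all 200 were called for each factor. The rule must call such genes, so that the check says nothing about the rate of false calls. Unlike the real BMAL1 and RNAP2 lists, the simulated lists of a factor were of similar length. The members and lists were chosen with earlier results of these data known. Named in full are genes with a REV-ERBα or BMAL1 region, *Ncor1*, *Hdac3* and the 5 strongest RNAP2 genes, and the rest by class. Alternatives were stricter thresholds, equal list lengths, other overlaps and windows, and single lists. The rule that a gene's own TSS be nearest, and regions beyond the window, were added after seeing the data.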

Additional observations from a re-analysis of the deposited data

How the results depend on the processing

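Of 38 counts and shares recomputed under alternatives, shared sites left aside, 16 stayed within 1.5 times the reported value and 22 did not. For RNAP2, 22 genes became 9 at a −log10 q of 1.3 and 12 within 1 kb of a TSS, and 35 to 36 with a single list. For REV-ERBα, 4 genes became 2 at that −log10 q (*Hdac3* and *Nr6a1*), 1 within 1 kb, 7 within 50 kb, 2 where the gene's own TSS had to be nearest, and 20 with either list alone. For BMAL1, 2 genes became 0 at a −log10 p of 3, at a −log10 q of 1.3, within 10 kb without the gene body and within 1 kb, 1 with equal list lengths (*Esr1*), 1 with overlap by 0.5 of the shorter peak (*Nr3c2*), 5 within 50 kb, and 20 to 37 with a single list. Shared sites became 2 within 50 kb and stayed 0 in 12 of 13 recomputations, where a factor of 1.5 has no meaning. A wider window can raise the count of any gene set, and no share of other genes was computed for 50 kb. With all other genes as comparison, the shares were 4.43% for REV-ERBα and 6.81% for BMAL1, and without gene bodies the BMAL1 share was 6.53%. For RNAP2 the comparison genes were all other genes from the start. No paired analysis was possible because the results come from no test. The BMAL1 result is the least firm, as both regions were lost at the stricter thresholds, and the unequal lists limit what 1 list alone shows.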
